A study of Mus musculus with 12 samples.

Results

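The genes described here encode the guidance proteins of 4 signalling systems: the semaphorins with their plexin and neuropilin receptors, the Slits with their Robo receptors, the netrins with their Unc5 receptors, and the ephrins with their Eph receptors. They were chosen by gene symbol alone, as every row of the expression table whose symbol belongs to one of these families. The rule used no measured value, although the members were chosen with earlier results of these data known. The rule found 58 of the 17362 genes in the table, and 57 of them passed the filter on low values and were tested. They comprised 7 class 3 semaphorins, 12 membrane semaphorins, 10 plexins and neuropilins, 7 Slits and Robos, 7 netrins and Unc5 receptors, 7 ephrins and 8 Eph receptors. Unc5d was the 1 member left untested, with at most 30 reads in any library.

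RNA was sequenced from cells that had been sorted with endothelial gates from the crushed tibia, femur and iliac bone of untreated B6 mice. Each of 4 populations was prepared in triplicate from 6 mice. The library labels carry mouse numbers shared across the populations, but how the 6 mice were divided among libraries is not given in the sources used here. All 4 gates were CD31+, Sca1+ and CD45-. CD200-high capillaries were sorted as CD200-high and EMCN-, type H vessels as EMCN+, arterial cells as CD200-, and the sinusoidal cells by the shared markers with no further one named. Each value is the deposited log2 CPM, a count per 1e6 reads, with 0.5 read added to each count, so that a gene without reads stands between -3.76 and -5.63 depending on the library's depth.

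Guidance proteins were named for steering axons, and many of them also act on blood vessels. A ligand, either secreted or held on a neighbouring cell, binds a receptor on the responding cell and repels or attracts it by reorganising its cytoskeleton. In endothelium, Sema3 ligands act through neuropilins and Plxnd1, Robo4 and Unc5b are receptors largely of vessels, and ephrin-B2 on arteries faces EphB4 on veins. Slit3 in bone has been linked to the growth of type H vessels, the capillaries of the growth zone that express much CD31 and endomucin.

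The libraries held 7332198 to 21627997 listed reads and differed in the cells they represent. Marker sums are given as percentages of the effective library size, which was 0.855 to 1.14 times the listed reads. The 15 pan-endothelial marker genes, among them Cdh5 and Tie1, summed to 0.334 to 0.603% in CD200-high libraries and 0.902 to 1.005% in type H. They summed to 0.176 to 0.229% in arterial and, far lower, 0.0314 to 0.0360% in the libraries labelled sinusoidal. None of the 15 was at 0 in all libraries of a population. The 13 stromal and bone markers summed to 13.1 to 19.3% in CD200-high libraries, 0.402 to 0.559% in type H (with Postn at 0), 1.71 to 1.88% in arterial and 0.784 to 1.74% in those labelled sinusoidal. The 11 sinusoidal endothelial markers were high in type H, at 1.16 to 1.52%, and lowest in the libraries labelled sinusoidal, at 0.0143 to 0.0157%. Those libraries also went against their Sca1+ gate: Ly6a, which encodes Sca1, stood at 4.05 ± 0.71 log2 CPM (SD, n = 3) there and at 8.92 ± 0.39 or more in the other 3 populations. They had 10 B cell markers summing to 1.09 to 1.25%, against 0.0128 to 0.451% elsewhere. For these reasons they are called the libraries labelled sinusoidal throughout. In sorted bulk RNA, fewer cells of a type and less RNA per cell cannot be told apart.

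**Figure D1:**
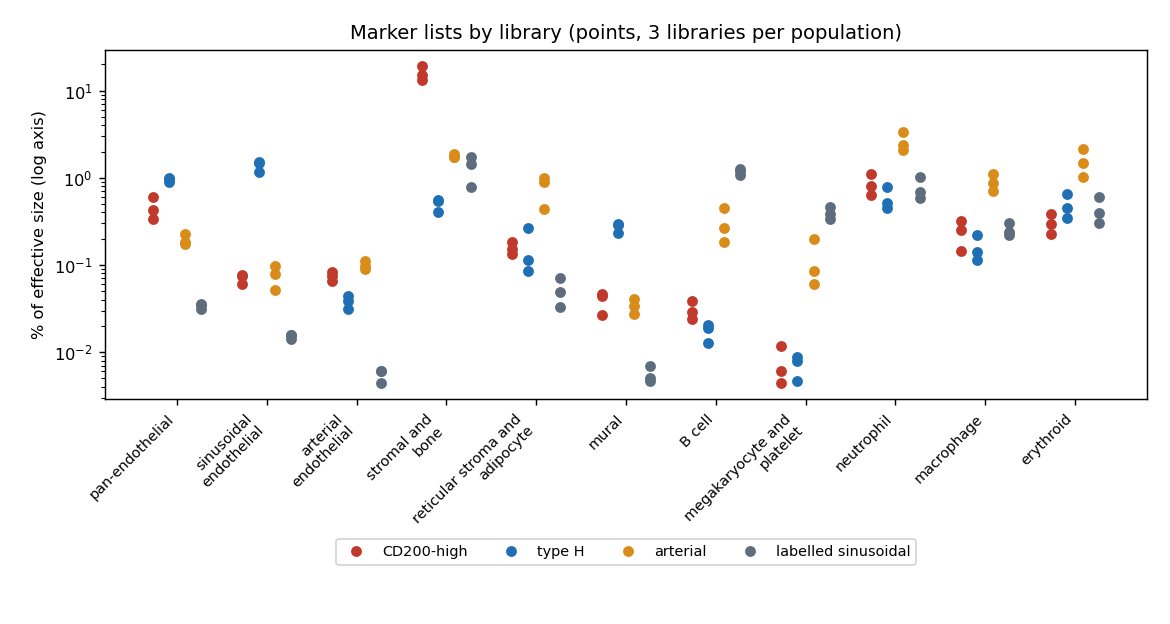
Summed level of each marker list, as a percentage of the effective library size on a log axis, with 1 point per library and 3 libraries per population. The CD200-high libraries stand highest for stromal and bone markers (13.1 to 19.3%), type H for pan-endothelial and sinusoidal endothelial markers, and the libraries labelled sinusoidal for B cell and megakaryocyte markers.

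The guidance genes took a larger share of the effective size in CD200-high and type H libraries than in the rest. Their CPM summed to 3031 ± 132 (SD, n = 3) in CD200-high and 2980 ± 241 in type H, to 1336 ± 265 in arterial, and to 441 ± 57.0 in those labelled sinusoidal. The first pair overlapped, while every arterial library lay below both and above every library labelled sinusoidal. Per kilobase of exon, which allows levels of different genes to be compared, Efna1 led in CD200-high (190 CPM per kb) and type H (283), followed by Nrp1 (91.6 and 87.3). Nrp1 (66.6) and Efna1 (61.0) also led in arterial libraries. In the libraries labelled sinusoidal the leading members were Sema4d (15.2), Slit1 (12.8) and Sema4b (10.96), and Efna1 was at 3.52.

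**Figure D2:**
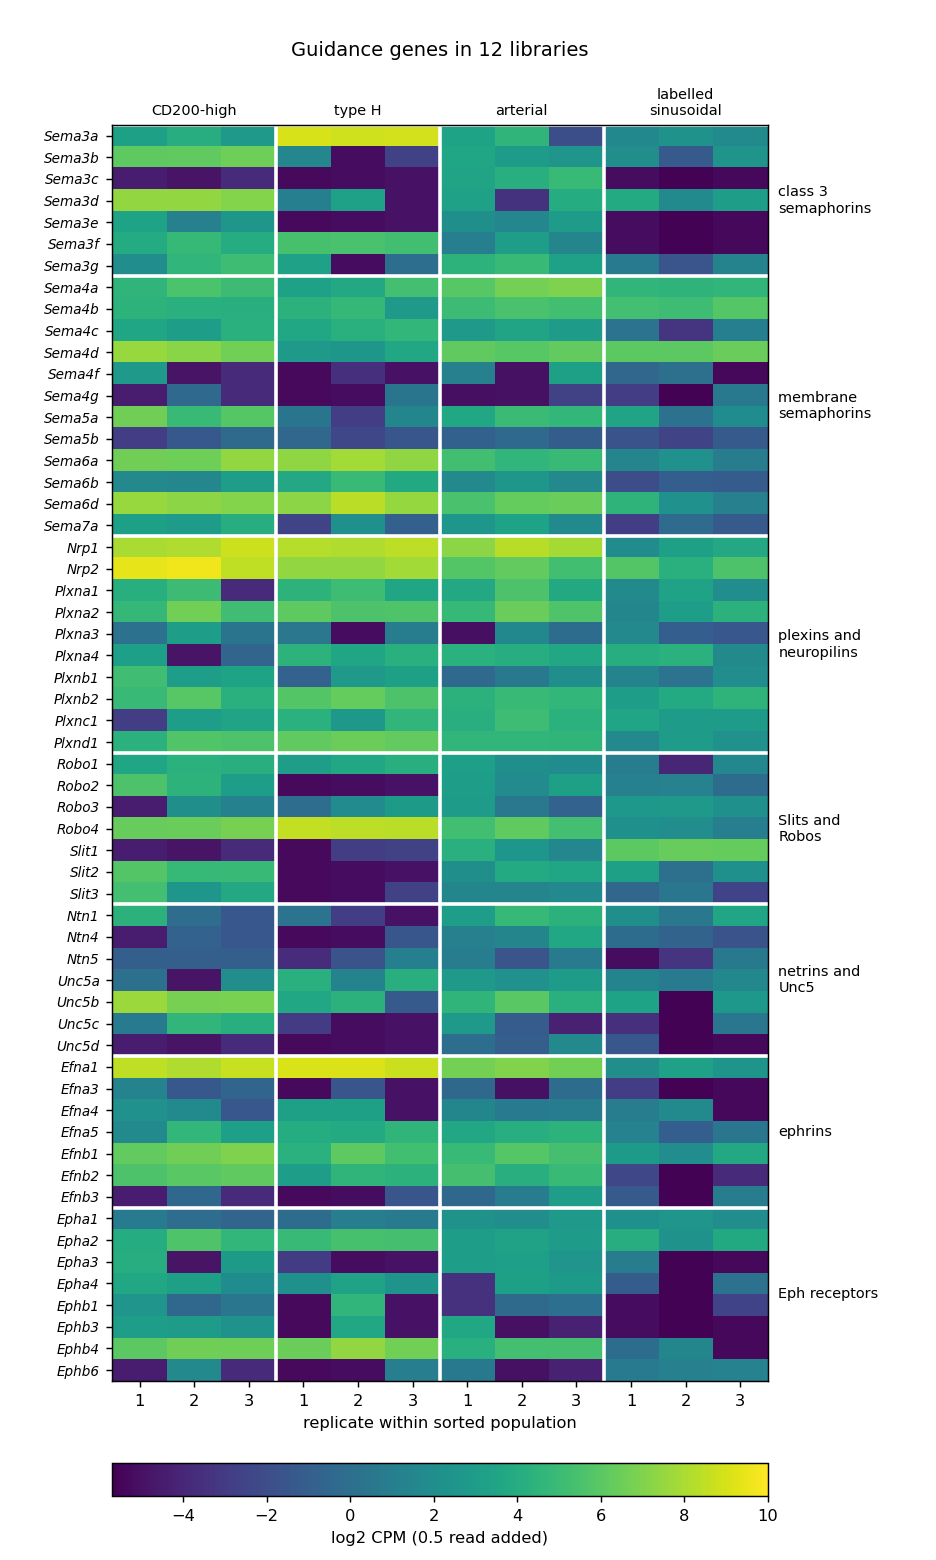
Level of all 58 guidance genes (rows, ordered by family) in each of the 12 libraries (columns, 3 per population), as log2 CPM on a colour scale. Efna1 and Nrp1 are bright in the CD200-high, type H and arterial columns, Nrp2 in CD200-high and type H, and Sema3a in type H alone. The columns labelled sinusoidal are dark for most families.

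Differences were tested with limma over all 17086 genes that passed the filter, with Benjamini-Hochberg adjustment in each comparison, and adjusted p below 0.05 counted as a call. The 6 comparisons share libraries, so their counts are not independent of each other. CD200-high against arterial libraries called 5 members, 3 higher and 2 lower, which is 8.77% of the 57 against 12.9% of all genes tested (4.75% higher and 8.15% lower). CD200-high against type H called 12 members, 10 higher and 2 lower (21.1%, against 13.0% of all genes, 6.66% higher and 6.35% lower), and type H against arterial called 21, 8 higher and 13 lower (36.8%, against 20.7%, 7.96% higher and 12.7% lower). Between CD200-high and arterial the order of these shares depended on the setting: with 10 reads added to each count 22.8% of members and 16.5% of all genes were called, with 1 CPM added 26.3% and 17.2%, and with only those populations fitted 17.5% and 10.4%. The larger share of members in type H against arterial did not hold when pan-endothelial medians were set equal (50.9% against 68.2%).

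Against the libraries labelled sinusoidal, CD200-high called 28 members, 27 higher and 1 lower (49.1%, against 28.7% of all genes, 14.1% higher and 14.6% lower), type H called 24, 19 higher and 5 lower (42.1%, against 28.6%, 13.9% higher and 14.6% lower), and arterial called 17, all higher (29.8%, against 10.2%, 8.09% higher and 2.14% lower). The median log2 difference of the members was 3.33, 0.73 and 2.45 in these 3 comparisons, beside -0.22, -0.20 and -0.02 over all genes. It was 0.83 for CD200-high minus arterial, 0.51 for CD200-high minus type H and -0.60 for type H minus arterial, beside -0.22, -0.05 and -0.20 over all genes. In each of the 107 called differences the 3 values of one population lay wholly above the 3 of the other. How often this held among all called genes was not counted. In all, 38 members were called in at least 1 comparison and 19 in none, and the matching share of all genes was not counted.

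These differences are shares of each library's reads and so depend on what else was sorted. When libraries were instead scaled so that the medians of the pan-endothelial genes were equal, the median of all genes moved by -4.69 (CD200-high minus labelled sinusoidal), -5.71 (type H minus labelled sinusoidal), -3.54 (arterial minus labelled sinusoidal), -2.17 (type H minus arterial), -1.16 (CD200-high minus arterial) and 1.01 (CD200-high minus type H). The calls then became 4 higher and 22 lower, 2 and 38, 5 and 15, 1 and 28, 1 and 10, and 16 and 1, in that order. Of all genes tested, 83.2, 89.8, 71.0, 67.0, 31.3 and 1.95% were then called lower, and of the members 38.6, 66.7, 26.3, 49.1, 17.5 and 1.75%. Direction and call were kept by 11 of the 12 members called between CD200-high and type H, by 14 of 21 between type H and arterial, and by 3 of 5 between CD200-high and arterial. Against the libraries labelled sinusoidal they were kept by 5 of 28 (CD200-high), 7 of 24 (type H) and 5 of 17 (arterial). Below, this is called the pan-endothelial scaling, and it is named here or below wherever it turned a member's direction or ended its call. Calls it ended against the libraries labelled sinusoidal included, with the log2 difference then left, Sema6a (0.27) in type H and Robo4 (0.34) in arterial. In CD200-high they included Robo4 (0.09), Sema3b (0.48), Sema6a (0.65), Sema7a (0.17), Slit3 (0.06) and Unc5c (1.40). Quantile normalization changed the split between CD200-high and arterial to 7 higher and 2 lower, and that between type H and arterial to 9 higher and 10 lower.

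**Figure D3:**
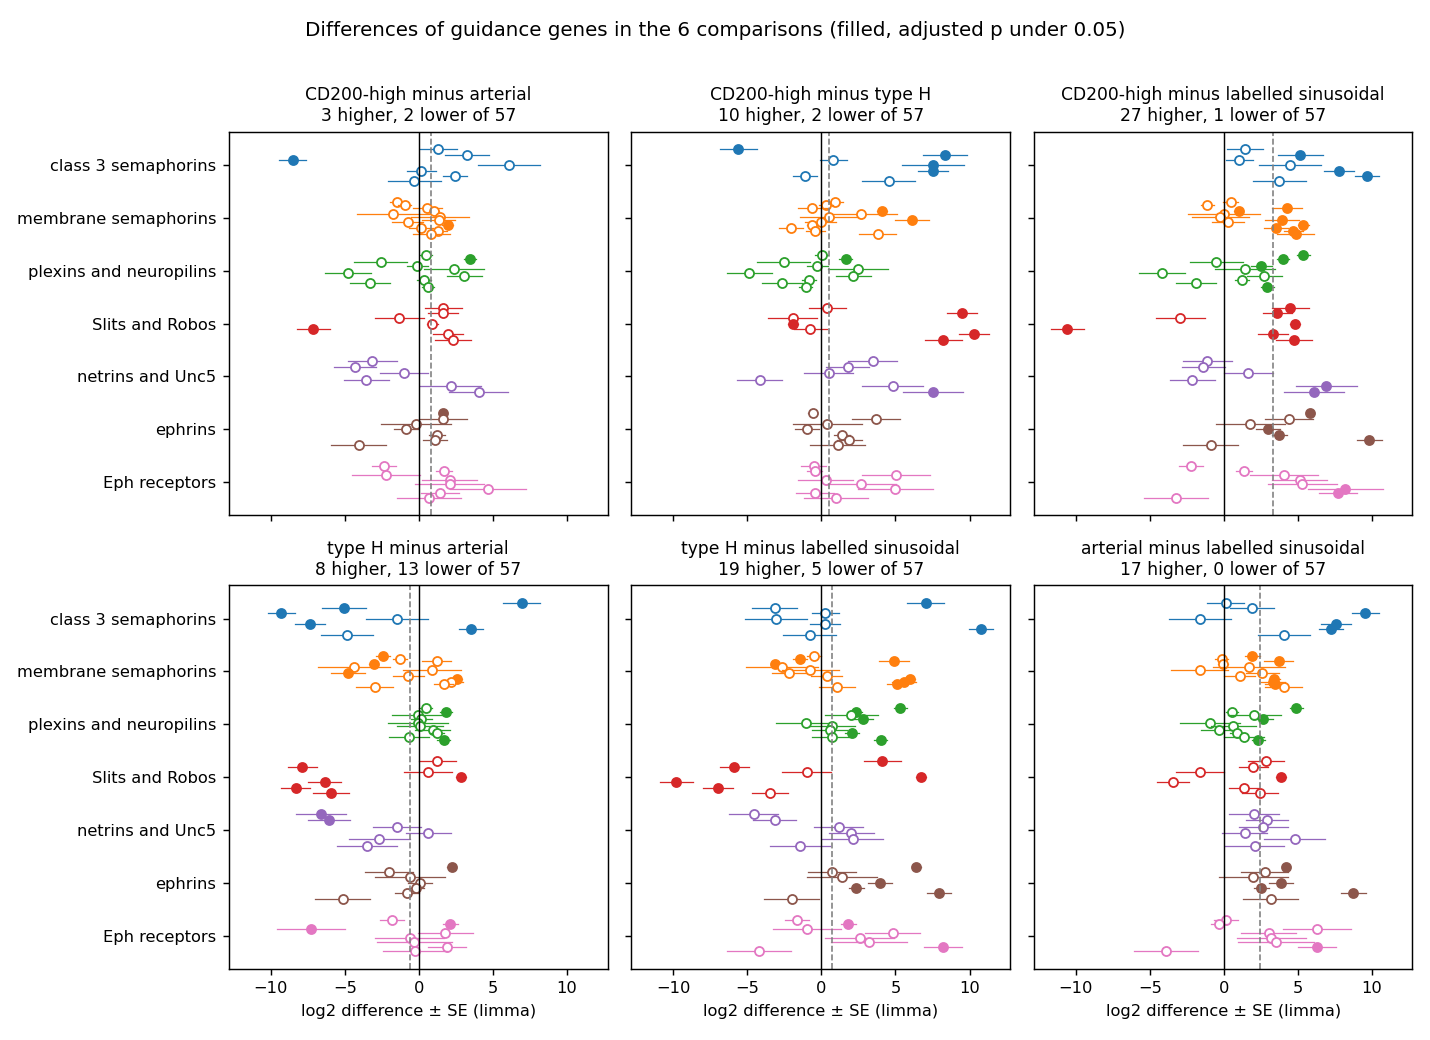
Log2 difference (limma, bars ± SE) of each tested guidance gene by family in the 6 comparisons, with called members filled and a dashed line at the median of the 57 members. Called members fall on both sides of 0 between type H and arterial (8 higher, 13 lower), and the 17 called between arterial and the libraries labelled sinusoidal are all higher.

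Among the class 3 semaphorins, the secreted ligands of neuropilins and plexins, Sema3a was highest in type H and Sema3c in the arterial libraries. Sema3a, a repellent of axons and endothelial cells, stood at 9.03, 8.87 and 8.95 log2 CPM in type H, at 3.20, 4.07 and 2.72 in CD200-high, at 3.38, 4.59 and -1.91 in arterial, and at 1.65, 2.33 and 1.74 in those labelled sinusoidal. Every type H library lay far above all the others, and arterial replicate 3, with 2 reads, stood apart from its group. On the log2 scale CD200-high minus type H was -5.62 ± 1.24 (SE, adjusted p = 0.0112), and type H exceeded arterial by 6.93 ± 1.24 (adjusted p = 0.00232) and the libraries labelled sinusoidal by 7.04 ± 1.24 (adjusted p = 0.00122). The last call was lost with the pan-endothelial scaling (1.34, adjusted p = 0.293). The 9 mural cell markers summed to 0.233 to 0.292% in type H and at most 0.0469% elsewhere, and the 11 sinusoidal endothelial markers to 1.16 to 1.52% with Clec4g at 0, against at most 0.0975%. The part of both marker lists in the Sema3a level was not tested.

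Sema3c, a ligand known from the cardiac outflow tract, had 183, 281 and 284 reads in the arterial libraries and 0 in each of the 9 others. Against a floor of 3 reads per library, its arterial level was at least 63.1-fold higher than in CD200-high, 114-fold higher than in type H and 135-fold higher than in the libraries labelled sinusoidal (adjusted p = 0.000308, 5.79e-05 and 5.5e-05). All 3 calls held with the pan-endothelial scaling. The arterial libraries also carried the highest sum of the 7 reticular stroma and adipocyte markers, 0.439 to 0.995% against 0.0326 to 0.263% elsewhere, and of the 10 neutrophil markers, 2.07 to 3.34% against 0.456 to 1.11%. Whether those cells contribute the Sema3c reads was not tested.

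The start-site regions of these ligands are shown because each was called highest in a single population, for Sema3a not with the pan-endothelial scaling. Both sequences are the 250 bases before the annotated start, on the plus strand of GRCm38.p6, from RefSeq: chr5:13396534-13396783 for Sema3a and chr5:17574566-17574815 for Sema3c. Capitals mark AGGAAG, a form of the core bound by ETS factors, which are prominent in endothelium.
Sema3a: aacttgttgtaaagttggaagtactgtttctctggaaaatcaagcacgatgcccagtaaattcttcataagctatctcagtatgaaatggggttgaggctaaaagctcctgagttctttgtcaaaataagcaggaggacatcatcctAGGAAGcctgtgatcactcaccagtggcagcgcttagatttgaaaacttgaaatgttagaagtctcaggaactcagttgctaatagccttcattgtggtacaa
Sema3c: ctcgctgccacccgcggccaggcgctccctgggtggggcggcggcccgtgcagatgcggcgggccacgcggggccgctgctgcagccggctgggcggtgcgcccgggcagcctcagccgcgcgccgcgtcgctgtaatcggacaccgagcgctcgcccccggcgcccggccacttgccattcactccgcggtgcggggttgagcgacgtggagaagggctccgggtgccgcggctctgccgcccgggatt
The Sema3a window had 40.8% G and C and 1 match to AGGAAG, and the Sema3c window had 78.4% and none.

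A further 3 of the 7 class 3 ligands were called lower in type H than in CD200-high cells, as were 6.66% of all genes tested. Sema3d, which acts through neuropilins in the heart and vessels, stood at 7.46, 7.43 and 7.09 log2 CPM in CD200-high and at 1.09, 3.30 and -4.95 in type H, where replicate 3 had 0 reads. CD200-high was above every other library, yet its difference from type H, 7.51 ± 2.10 (adjusted p = 0.0357), was not called in 6 of the 12 fits that left out 1 library. Those were the fits without CD200-high replicate 1, 2 or 3, type H replicate 1 or 3, or replicate 3 of the libraries labelled sinusoidal (highest adjusted p 0.105). It was also not called with the replicate number as a block (adjusted p = 0.0538).

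Sema3b, a ligand lost in some tumours, was at 6.11, 6.17 and 6.51 in CD200-high and at 1.59, -5.17 and -2.63 in type H. The groups were far apart, by 8.33 ± 1.49 (adjusted p = 0.00325), although the type H libraries held 58, 0 and 2 reads. Sema3b was also higher in arterial than in type H (type H minus arterial -5.09 ± 1.49, adjusted p = 0.0317), a call lost without type H replicate 2 or 3 or any 1 arterial library (highest adjusted p 0.0956). Sema3e, the ligand of Plxnd1, had 0 reads in all type H libraries and in all libraries labelled sinusoidal. Compared with type H, its level was higher by at least 36.2-fold in CD200-high and 28.9-fold in arterial (adjusted p = 0.000465 and 0.000426), from 31 to 113 reads per library where it was found.

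Sema3f, a ligand of Nrp2, had 0 reads in all 3 libraries labelled sinusoidal, as did Sema3c and Sema3e. It stood at 5.43, 5.47 and 5.22 in type H, 3.94, 4.79 and 4.04 in CD200-high, and 1.04, 3.02 and 1.44 in arterial. These 3 groups did not overlap, and only type H minus arterial was called among them (3.54 ± 0.81, adjusted p = 0.00953, lost with the pan-endothelial scaling at 0.202). Type H was at least 287-fold, CD200-high 136-fold and arterial 29.4-fold above the libraries labelled sinusoidal (adjusted p = 2.3e-06, 7.61e-06 and 0.000188), and all 3 calls held with the pan-endothelial scaling. Sema3g, known from arterial endothelium, was at 4.44, 4.94 and 3.31 in arterial, 2.01, 4.61 and 5.14 in CD200-high, and 3.30, -5.17 and 0.00 in type H. It was called in no comparison, with the lowest adjusted p at 0.0763 for type H minus arterial (-4.85 ± 1.78), where the groups did not overlap.

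**Figure D4:**
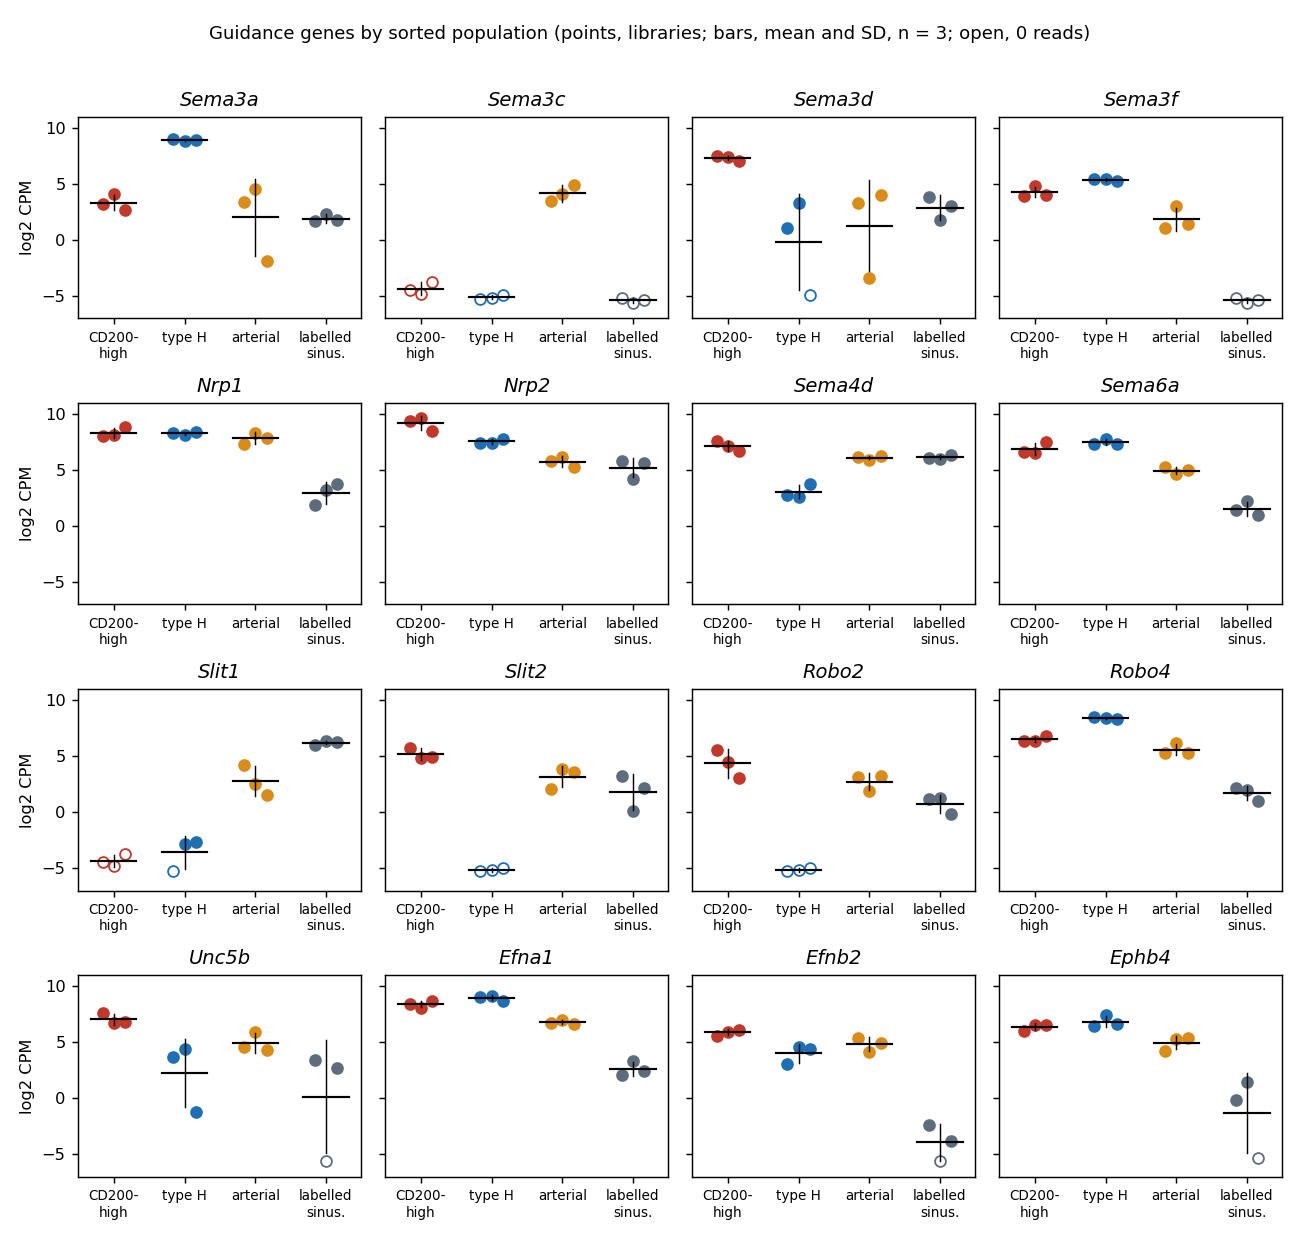
Log2 CPM of 16 guidance genes in each library (points, open where a library had 0 reads), with the mean and SD of 3 libraries per population (bars). Sema3a and Robo4 are highest in type H, Sema3c is found in arterial libraries alone, Nrp2 is highest in CD200-high (not against the libraries labelled sinusoidal with the pan-endothelial scaling, -0.71), and Slit2 and Robo2 have 0 reads in all type H libraries.

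The neuropilins, co-receptors for class 3 semaphorins and VEGF, divided as shares of reads into one that was even across 3 populations and one that was graded. Nrp1 was at 8.01, 8.12 and 8.83 log2 CPM in CD200-high, 8.28, 8.15 and 8.44 in type H, 7.30, 8.33 and 7.91 in arterial, and 1.87, 3.20 and 3.80 in those labelled sinusoidal. The first 3 groups overlapped and none of their differences was called (0.03 ± 0.43, 0.47 ± 0.43 and 0.45 ± 0.43 for CD200-high minus type H, CD200-high minus arterial and type H minus arterial). The pan-endothelial scaling moves these differences by 1.01, -1.16 and -2.17 in that order. All 3 populations were called above the libraries labelled sinusoidal, by 5.36, 5.33 and 4.89 ± 0.43 (adjusted p = 5.33e-06, 3.86e-06 and 3.24e-05). With the pan-endothelial scaling the type H difference turned to -0.37 and that of CD200-high was no longer called (0.67, adjusted p = 0.121).

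Nrp2, the neuropilin of veins and lymphatics, was the 1 member called higher in CD200-high than in each other population, although its difference from the libraries labelled sinusoidal (3.98 ± 0.42, adjusted p = 3.57e-05) turned to -0.71 with the pan-endothelial scaling. It stood at 9.41, 9.66 and 8.498 in CD200-high, 7.43, 7.42 and 7.82 in type H, 5.78, 6.21 and 5.25 in arterial, and 5.79, 4.25 and 5.59 in those labelled sinusoidal. CD200-high lay above all others and type H above the remaining libraries, while the last pair of groups overlapped. CD200-high exceeded arterial by 3.45 ± 0.42 (adjusted p = 0.000521) and type H by 1.63 ± 0.42 (adjusted p = 0.0238), both also called with the pan-endothelial scaling. The call over type H was lost without CD200-high replicate 1 or 2 or type H replicate 1 or 2 (highest adjusted p 0.0813). Nrp2 was also higher in type H than in arterial (1.82 ± 0.42, adjusted p = 0.00959), and this direction turned to -0.35 with the pan-endothelial scaling.

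Of the 8 plexins, the signalling receptors of semaphorins, only Plxnd1, Plxna2 and Plxnb2 were called in any comparison. The matching share of all genes was not counted. Plxnd1, the endothelial receptor for Sema3e, was at 6.16, 6.45 and 6.23 in type H, 4.303, 5.72 and 5.63 in CD200-high, 4.65, 4.61 and 4.56 in arterial, and 1.68, 2.92 and 2.25 in those labelled sinusoidal. Type H lay above all others. Its difference from arterial was called (1.67 ± 0.43, adjusted p = 0.0175) but turned to -0.50 with the pan-endothelial scaling and was lost without type H replicate 2 or arterial replicate 3 (adjusted p 0.0512 and 0.0521). Type H minus CD200-high was not called (CD200-high minus type H -1.06 ± 0.43, adjusted p = 0.14).

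Plxnd1 and Plxna2 were called above the libraries labelled sinusoidal in all 3 other populations, and Plxnb2, a receptor for Sema4 ligands, in type H alone (2.08 ± 0.47, adjusted p = 0.00624). All 7 of these directions turned negative with the pan-endothelial scaling, at -0.90 to -3.63. The Plxna2 call was also lost in CD200-high without CD200-high replicate 2 or replicate 1 of those labelled sinusoidal (highest adjusted p 0.0704). In arterial it was lost without arterial replicate 2 or 3 or replicate 1 or 2 of those labelled sinusoidal (highest adjusted p 0.136). The remaining plexins, Plxna1, Plxna3, Plxna4, Plxnb1 and Plxnc1, were found in at least 2 libraries of every population and called in none. Plxna1 had 198, 491 and 0 reads in the CD200-high libraries.

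Among the membrane semaphorins, Sema4d was the one called lower in type H than in each of the other 3 populations. Sema4d, the ligand of Plxnb1 on lymphocytes, osteoclasts and other cells, was at 7.59, 7.19 and 6.67 log2 CPM in CD200-high, 6.17, 5.94 and 6.22 in arterial, 6.06, 6.04 and 6.38 in those labelled sinusoidal, and 2.80, 2.63 and 3.72 in type H. Every type H library was below all the others. CD200-high exceeded type H by 4.10 ± 0.32 (adjusted p = 1.14e-05), and type H minus arterial and type H minus labelled sinusoidal were -3.06 ± 0.32 and -3.11 ± 0.32 (adjusted p = 8.96e-05 and 2.53e-05). All 3 calls held with the pan-endothelial scaling. B cell markers, which stand for one cell type that carries Sema4d, summed to 0.0128 to 0.0202% in type H and 0.0240 to 0.0384% in CD200-high. They summed to 0.181 to 0.451% in arterial and 1.09 to 1.25% in those labelled sinusoidal, and their part in the Sema4d levels was not tested.

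Sema6a, Sema6d and Sema4a, transmembrane ligands of the class A and other plexins, followed other orders. Sema6a was at 7.37, 7.80 and 7.36 in type H, 6.61, 6.55 and 7.48 in CD200-high, 5.25, 4.64 and 4.97 in arterial, and 1.43, 2.23 and 0.95 in those labelled sinusoidal. The first pair overlapped and both exceeded arterial, by 2.56 ± 0.37 for type H and 1.93 ± 0.37 for CD200-high (adjusted p = 0.000642 and 0.0064), calls that the pan-endothelial scaling ended (0.39 and 0.77). Sema4a, known from immune cells, was at 5.92, 6.71 and 6.95 in arterial, 4.54, 5.56 and 5.05 in CD200-high, 3.26, 3.78 and 5.28 in type H, and 4.63, 4.49 and 4.66 in the libraries labelled sinusoidal. Every arterial library was above all the others.

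The arterial excess of Sema4a was called against type H (type H minus arterial -2.42 ± 0.49, adjusted p = 0.00477) and against the libraries labelled sinusoidal (1.93 ± 0.49, adjusted p = 0.0269). The latter direction turned to -1.61 with the pan-endothelial scaling, and its call was lost without arterial replicate 2 or 3 or any 1 library labelled sinusoidal (highest adjusted p 0.117). The 8 macrophage markers in the table were also highest in the arterial libraries, at 0.711 to 1.10% against 0.113 to 0.323% elsewhere, and their part in the Sema4a level was not tested. Sema6d was at 7.25, 8.3997 and 7.52 in type H, 7.59, 7.27 and 7.09 in CD200-high and 5.47, 6.27 and 6.44 in arterial, with no call among these 3.

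Sema5a, a semaphorin with thrombospondin repeats that binds sulphated sugar chains, was at 6.59, 4.90 and 5.89 in CD200-high, 3.69, 5.03 and 4.69 in arterial and 0.39, -2.85 and 1.49 in type H. Type H was below both others (6.11 ± 1.12 for CD200-high minus type H, -4.79 ± 1.12 for type H minus arterial, adjusted p = 0.00367 and 0.0104). Sema4b was the 1 member besides Sema4d, Slit1, Slit2 and Robo2 called lower in type H than in the libraries labelled sinusoidal (-1.44 ± 0.45, adjusted p = 0.0328). That call was lost without type H replicate 3 or any 1 library labelled sinusoidal (highest adjusted p 0.121). Sema6b, Sema6d and Sema4c were called above the libraries labelled sinusoidal in the 3 other populations. Their directions turned with the pan-endothelial scaling (-0.0017 to -1.19), except for Sema4c in arterial (0.17, no longer called). The Sema4c call in arterial was also lost without any 1 arterial library or replicate 2 of those labelled sinusoidal (highest adjusted p 0.117). That of Sema6b was lost without arterial replicate 2 or 3 or replicate 1 of those labelled sinusoidal (highest adjusted p 0.0858). Sema4f, Sema4g and Sema5b were called in no comparison, and Sema5b had at most 13 reads in any library.

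Among the 7 tested Slit ligands and Robo receptors, 3 were called lower in type H than in CD200-high and 1, Robo4, higher. Of all genes tested, 6.66% were lower and 6.35% higher in that comparison. Against arterial, 4 were called lower in type H and 1, Robo4, higher, beside 12.7% and 7.96% of all genes. Slit2, a secreted repellent and ligand of Robo1 and Robo2, had 592, 404 and 201 reads in CD200-high, 71, 240 and 111 in arterial, 170, 26 and 91 in those labelled sinusoidal, and 0 in all 3 type H libraries. CD200-high was at least 219-fold, arterial 60.1-fold and the libraries labelled sinusoidal 29.1-fold above type H (adjusted p = 4.89e-05, 0.00019 and 0.000274). Slit3, the family member linked to bone, had 433, 80 and 94 reads in CD200-high, 48, 43 and 31 in arterial, and 0, 0 and 2 in type H. It too was called between CD200-high and type H (8.23 ± 1.23, adjusted p = 0.000989) and between type H and arterial (-5.93 ± 1.23, adjusted p = 0.00546).

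Robo2, a receptor for Slits, had 523, 315 and 55 reads in CD200-high, 146, 59 and 87 in arterial, 39, 58 and 18 in those labelled sinusoidal, and 0 in all type H libraries. CD200-high was at least 152-fold, arterial 42.0-fold and the libraries labelled sinusoidal 10.5-fold above type H (adjusted p = 8.39e-05, 0.000255 and 0.0009). The last call was lost when more was added to each value before the log, 10 reads (adjusted p = 0.0586) or 1 CPM (adjusted p = 0.113). The other called differences of Slit2, Slit3 and Robo2 from type H were called with each scaling tried.

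The order of Slit2, Slit3 and Robo2, with CD200-high first and type H last, was also that of the stromal and bone markers at its top and bottom. All 13 of those markers had reads in CD200-high, where they summed to 13.1 to 19.3%, and they summed to 0.402 to 0.559% in type H with Postn at 0. The same markers stand beside the CD200-high excess over type H of Nrp2, Sema3b, Sema3d, Sema3e, Sema4d, Sema5a and Unc5c. Their part in these results was not tested.

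Slit1, the Slit best known from brain, was found mainly in arterial libraries and those labelled sinusoidal. It had 1182, 1983 and 1592 reads in the latter, 319, 94 and 27 in arterial, 0, 2 and 2 in type H, and 0 in all CD200-high libraries. The groups did not overlap at the top: every library labelled sinusoidal was above every arterial one, although that difference was not called. The libraries labelled sinusoidal were at least 241-fold and arterial 29.8-fold above CD200-high (adjusted p = 3.57e-05 and 0.00182), and type H minus labelled sinusoidal was -9.80 ± 1.11 (adjusted p = 4.97e-05). B cell markers were likewise highest in the libraries labelled sinusoidal, at 1.09 to 1.25%, and next in arterial, at 0.181 to 0.451%. So were 8 megakaryocyte and platelet markers, at 0.334 to 0.462% and 0.0604 to 0.196% against at most 0.0117% in the other populations. Their part in the Slit1 reads was not tested.

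Robo4, the Robo of endothelium that stabilises vessels, was with Sema3a the member called higher in type H than in each other population. It was at 8.53, 8.41 and 8.34 log2 CPM in type H, 6.35, 6.38 and 6.77 in CD200-high, 5.27, 6.19 and 5.31 in arterial, and 2.16, 1.97 and 1.02 in those labelled sinusoidal. The 4 groups did not overlap. Type H exceeded arterial by 2.84 ± 0.34 (adjusted p = 0.000197) and the libraries labelled sinusoidal by 6.71 ± 0.34 (adjusted p = 1.1e-07), and CD200-high minus type H was -1.93 ± 0.34 (adjusted p = 0.00304). All 3 calls were lost with the pan-endothelial scaling, at 0.67, 1.01 and -0.92 (adjusted p = 0.235, 0.0667 and 0.196), with their directions kept. The mural and sinusoidal endothelial markers given beside Sema3a were also highest in type H, and their part in the Robo4 level was not tested. Robo1, the broadly expressed Slit receptor, was called above the libraries labelled sinusoidal in CD200-high and type H (4.50 ± 1.24 and 4.11 ± 1.24, adjusted p = 0.0184 and 0.0268), and both directions turned with the pan-endothelial scaling (-0.20 and -1.60). The type H call was also lost without type H replicate 2 or 3 (highest adjusted p 0.0757). Robo3 was called in no comparison.

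Slit2 and Robo4 stand at opposite ends in type H, and the 250 bases before their annotated starts are shown for that contrast. Both are on the plus strand of GRCm38.p6 (RefSeq), at chr5:47982905-47983154 for Slit2 and chr9:37401722-37401971 for Robo4, and capitals again mark AGGAAG.
Slit2: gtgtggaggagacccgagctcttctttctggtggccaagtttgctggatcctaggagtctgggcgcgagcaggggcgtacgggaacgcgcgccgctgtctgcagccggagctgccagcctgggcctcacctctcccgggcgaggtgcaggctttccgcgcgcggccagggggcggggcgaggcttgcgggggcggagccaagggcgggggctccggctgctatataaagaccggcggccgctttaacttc
Robo4: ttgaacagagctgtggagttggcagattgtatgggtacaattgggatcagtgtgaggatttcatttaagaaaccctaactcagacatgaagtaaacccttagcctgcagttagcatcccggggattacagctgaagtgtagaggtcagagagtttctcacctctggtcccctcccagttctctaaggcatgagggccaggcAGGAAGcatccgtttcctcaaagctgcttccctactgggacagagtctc
The Slit2 window had 69.6% G and C and no match, and the Robo4 window had 49.6% and 1 match.

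Over 49 guidance genes with an entry in the RefSeq promoter table, AGGAAG (or its complement CTTCCT) was found in 23 of 63 windows, or 36.5%, against 29.5% of all 32851 windows of the same length. Of 6 further motifs, also read on both strands, CACACCC, a form of the site of KLF factors, was in 14.3% of the members' windows against 6.93% of all. The forkhead motif GTAAACA was in none, against 3.17%. A second ETS form, CCGGAA, shares a 4-base core with the first and was in 9.52% against 12.03%. The motif of haematopoietic zinc-finger factors, AGATAA, was in 4.76% against 9.99%. The SOX motif ACAATG was in 9.52% against 10.7%, and the AP-1 motif TGACTCA in 3.17% against 4.46%. The Sema3a window also held 1 match to the SOX motif, on the minus strand near its 3′ end and left in lower case above. The motifs were chosen after these matches had been seen, so the shares are a description of letters only.

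Netrins, secreted ligands of the Unc5 and Dcc receptors, were scarce in type H, with at most 32 reads of any netrin in a library. Ntn1 was at 3.09, 4.83 and 4.39 log2 CPM in arterial, 2.11, 0.56 and 3.55 in those labelled sinusoidal, 4.39, -0.09 and -1.44 in CD200-high, and 0.27, -2.85 and -4.95 in type H. The arterial libraries were above type H throughout (type H minus arterial -6.62 ± 1.67, adjusted p = 0.0156), a call lost without type H replicate 3 or arterial replicate 2 or 3 (highest adjusted p 0.0545). Ntn4, a netrin of basement membranes, had 37, 44 and 119 reads in arterial and 0, 0 and 5 in type H, a difference of -6.08 ± 1.44 (adjusted p = 0.0112) that quantile normalization ended (adjusted p = 0.0645). Per kilobase, Ntn4 was also low in CD200-high (0.078 CPM per kb) and in those labelled sinusoidal (0.16), beside 0.030 in type H and 1.61 in arterial. Ntn4 was not called elsewhere, and Ntn5 had at most 32 reads in any library.

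Unc5b, the netrin receptor of vessels, was strongest in CD200-high, at 7.64, 6.76 and 6.85, against 4.59, 5.97 and 4.29 in arterial, 3.67, 4.37 and -1.25 in type H, and 3.41, -5.63 and 2.69 in the libraries labelled sinusoidal. CD200-high was above all the others, while 1 library of each of the last 2 groups held 6 reads or fewer. Only its difference from the libraries labelled sinusoidal was called (6.92 ± 2.06, adjusted p = 0.0263). That call was lost with the pan-endothelial scaling (2.23, adjusted p = 0.272) and without CD200-high replicate 1, 2 or 3 or replicate 2 of the libraries labelled sinusoidal (highest adjusted p 0.0687). The differences from type H (4.82 ± 2.06, adjusted p = 0.159) and arterial (2.13 ± 2.06, adjusted p = 0.551) were not called.

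Unc5c, a dependence receptor of the same family, had 17, 362 and 123 reads in CD200-high and 2, 0 and 0 in type H. The difference of 7.54 ± 2.01 (adjusted p = 0.029) missed the threshold with the replicate number as a block (0.0512) and without CD200-high replicate 2 or 3 or type H replicate 2 or 3 (highest adjusted p 0.0852). Unc5a was called in no comparison, with 379, 45 and 285 reads in type H and 11, 0 and 28 in CD200-high.

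Of the 7 ephrins, ligands held on the cell surface, 4 were called above the libraries labelled sinusoidal in each of the 3 other populations. These were Efna1, Efna5, Efnb1 and Efnb2, with the exceptions under the pan-endothelial scaling given for each. Of all genes tested, 4.86% were called above those libraries in all 3. Efna1, an ephrin-A of endothelium, was at 9.09, 9.17 and 8.74 log2 CPM in type H, 8.47, 8.11 and 8.68 in CD200-high, 6.74, 6.998 and 6.65 in arterial, and 2.07, 3.30 and 2.42 in those labelled sinusoidal. The 4 groups did not overlap, although type H and CD200-high were close (CD200-high minus type H -0.58 ± 0.29, adjusted p = 0.231). Type H exceeded arterial by 2.21 ± 0.29 and CD200-high exceeded arterial by 1.62 ± 0.29 (adjusted p = 0.00033 and 0.00411), calls that the pan-endothelial scaling ended (0.04 and 0.47). CD200-high, type H and arterial exceeded the libraries labelled sinusoidal by 5.82, 6.41 and 4.20 ± 0.29 (adjusted p = 1.72e-07, 5.77e-08 and 5.69e-06), and of these only the CD200-high call held with that scaling.

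Efnb2, the ephrin that marks arteries, did not separate the arterial libraries from the CD200-high and type H ones. It was at 5.61, 5.97 and 6.15 in CD200-high, 5.39, 4.18 and 4.92 in arterial, 3.06, 4.59 and 4.42 in type H, and had 3, 0 and 1 reads in the libraries labelled sinusoidal. Arterial and type H overlapped (-0.81 ± 0.84, adjusted p = 0.547), and CD200-high was above both without a call (1.08 ± 0.84 and 1.89 ± 0.84, adjusted p = 0.445 and 0.175). Against the libraries labelled sinusoidal the differences were 9.83, 8.75 and 7.94 ± 0.84 for CD200-high, arterial and type H (adjusted p = 8.27e-06, 5.75e-05 and 2.9e-05), and all 3 calls held with the pan-endothelial scaling.

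Efnb1 and Efna5 were also called above the libraries labelled sinusoidal in the 3 other populations, by 3.75, 2.37 and 2.54 ± 0.52 for Efnb1 and 2.95, 3.92 and 3.84 ± 0.81 for Efna5 (CD200-high, type H and arterial in turn). With the pan-endothelial scaling Efnb1 turned in all 3 (-0.94, -3.34 and -0.998) and Efna5 in the first pair (-1.75 and -1.78), while Efna5 in arterial fell short of a call (0.30). The Efna5 call was also lost in CD200-high without replicate 2 of CD200-high or of those labelled sinusoidal (highest adjusted p 0.0681), and in arterial without arterial replicate 3 (adjusted p = 0.0524). Efna3, Efna4 and Efnb3 were called in no comparison, with at most 26, 181 and 76 reads in a library.

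Eph receptors, the tyrosine kinases that bind ephrins, were led per kilobase by Ephb4, the partner of Efnb2, in CD200-high, type H and arterial. In the libraries labelled sinusoidal Epha2 led (3.08 CPM per kb, against 0.28 for Ephb4). Ephb4, known from veins, was at 6.48, 7.45 and 6.65 in type H, 6.03, 6.58 and 6.57 in CD200-high, 4.28, 5.32 and 5.35 in arterial, and -0.12, 1.49 and -5.36 in those labelled sinusoidal. Type H and CD200-high overlapped and every arterial library was below both, without a call (1.87 ± 1.28 and 1.41 ± 1.28, adjusted p = 0.342 and 0.527). It was called above the libraries labelled sinusoidal in type H, CD200-high and arterial (8.19, 7.72 and 6.31 ± 1.28, adjusted p = 0.000527, 0.000941 and 0.00829), and none of these 3 calls held with the pan-endothelial scaling (2.48, 3.03 and 2.78).

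Epha2, the receptor for ephrin-A1 in endothelium, was at 4.96, 5.41 and 5.38 in type H, 4.03, 5.67 and 4.68 in CD200-high, 3.07, 3.32 and 2.97 in arterial, and 4.06, 2.39 and 3.84 in those labelled sinusoidal. Type H was above the last pair of groups, by 2.13 ± 0.53 over arterial and 1.82 ± 0.53 over those labelled sinusoidal (adjusted p = 0.014 and 0.022), and both directions turned with the pan-endothelial scaling (-0.0405 and -3.89). The latter call was also lost without type H replicate 2 or 3 or replicate 2 of the libraries labelled sinusoidal (highest adjusted p 0.0871). CD200-high was not called against arterial for Epha2 (1.67 ± 0.53, adjusted p = 0.0592).

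Calls or reads of Epha3, Ephb3 and Ephb1, receptors of ephrins, rested on few libraries. Epha3 had 142, 144 and 53 reads in arterial and 2, 0 and 0 in type H (type H minus arterial -7.28 ± 2.29, adjusted p = 0.0426), a call lost in 7 of the 12 fits without 1 library: any 1 of type H or arterial, or replicate 3 of those labelled sinusoidal (highest adjusted p 0.103). Ephb3 had 88, 114 and 35 reads in CD200-high and 0 in all libraries labelled sinusoidal, which made it at least 48.8-fold higher (adjusted p = 0.0316). That call was lost without any 1 library of either group (highest adjusted p 0.0816) and with the pan-endothelial scaling (3.50, adjusted p = 0.2). Ephb3 was also found in only 1 type H library (234 reads) and 1 arterial library (212 reads), and Ephb1 in only 1 type H library (443 reads). Epha1, Epha4 and Ephb6 were called in no comparison.

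Such uneven detection was measured over all members. In 10 of 228 pairs of member and population, or 4.39%, a gene had 0 reads in 1 library and at least 100 in another of the same population, against 3.08% for all genes tested. The pairs belonged to 9 members: Ephb3 in type H and arterial, Ephb1, Efna4, Sema3d and Sema3g in type H, Epha3 and Plxna1 in CD200-high, Unc5c in arterial and Unc5b in those labelled sinusoidal. Of the 107 called differences, 80 were still called whichever 1 library was left out, a share not counted over all called genes. Among those were Sema3a, Sema3c, Slit1 and Robo4 in each comparison that called them, Slit2 and Robo2 against type H, and Nrp2 between CD200-high and arterial.

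Members called lower in 1 population than in each of the other 3 were all in type H or in the libraries labelled sinusoidal. Type H was lowest for Robo2, Sema4d and Slit2, and 2.22% of all genes were lowest there. The libraries labelled sinusoidal were lowest for 14 members, and 4.86% of all genes were lowest there. No member was lowest in CD200-high (1.11% of all genes) or in arterial (0.0819%). These 14 were Efna1, Efna5, Efnb1, Efnb2, Ephb4, Nrp1, Plxna2, Plxnd1, Robo4, Sema3f, Sema4c, Sema6a, Sema6b and Sema6d. With the pan-endothelial scaling 9 of them turned in at least 1 of the 3 comparisons. Of the others, Ephb4 and Robo4 kept none of the 3 calls and Efna1 only that of CD200-high, while Efnb2 and Sema3f kept all 3. Highest members were few: Nrp2 in CD200-high (where 1.57% of all genes were highest), Sema3a and Robo4 in type H (2.89%), Sema3c in arterial (1.0%) and none in the libraries labelled sinusoidal (1.29%).

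Partner ligands and receptors outside these symbol families, such as Dcc, neogenin, the Flrt proteins and VEGF receptors, were read from a list of 27 genes, of which 21 were tested. Their called members numbered 4 higher and 2 lower in CD200-high against arterial, 4 and 1 against type H, and 9 and 2 against the libraries labelled sinusoidal. Type H against arterial gave 3 higher and 7 lower, type H against labelled sinusoidal 7 and 4, and arterial against labelled sinusoidal 5 and 1. In that order these calls were 28.6, 23.8, 52.4, 47.6, 52.4 and 28.6% of the list, against 12.9, 13.0, 28.7, 20.7, 28.6 and 10.2% of all genes. With the pan-endothelial scaling 5 of the 9 higher in CD200-high than in those labelled sinusoidal turned (Flrt3, Flt4, Gpc1, Sdc2 and Sdc3), as did 2 of 7 in type H (Adgrl2 and Sdc3) and 2 of 5 in arterial (Flt4 and Sdc3). Gpc1, a heparan sulphate carrier that binds Slits, was at 8.396 ± 0.65 log2 CPM (SD, n = 3) in CD200-high, 5.42 ± 0.31 in arterial and 1.29 ± 1.04 in type H. It was called between CD200-high and both (2.98 ± 0.49 and 7.10 ± 0.49, SE, adjusted p = 0.00262 and 5.03e-06).

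Flt4, the VEGF receptor of lymphatic and sinusoidal endothelium, was highest in type H, at 9.76 ± 0.16 in type H, 6.01 ± 0.63 in CD200-high and 4.08 ± 1.19 in arterial. Neo1, the netrin and RGM receptor neogenin, was at 4.46 ± 0.86 in CD200-high and -2.82 ± 4.17 in type H (7.28 ± 1.80, adjusted p = 0.0204), so its type H libraries were widely spread. Draxin is a netrin antagonist and Cd72 a B cell receptor for Sema4d. Both stood lower in CD200-high than in arterial (-7.64 ± 1.03 and -2.91 ± 0.44) and than in the libraries labelled sinusoidal (-8.78 ± 1.03 and -5.26 ± 0.44). The same held for type H, against arterial (-8.42 ± 1.03 and -2.28 ± 0.44) and those labelled sinusoidal (-9.56 ± 1.03 and -4.63 ± 0.44). Neither was called between CD200-high and type H.

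Intracellular effectors of guidance signalling, such as the srGAP, MICAL and CRMP proteins, were read from a list of 40 genes, of which 37 were tested. Called effectors numbered 4 higher and 1 lower in CD200-high against arterial, 7 and 2 against type H, and 17 and 2 against the libraries labelled sinusoidal. Type H against arterial gave 6 and 6, type H against labelled sinusoidal 15 and 5, and arterial against labelled sinusoidal 4 and 2. These were 13.5, 24.3, 51.4, 32.4, 54.1 and 16.2% of the list, against the shares of all genes given for the partners. With the pan-endothelial scaling 12 of the 17 higher in CD200-high than in those labelled sinusoidal turned, 12 of the 15 in type H, and 5 of the 6 higher in type H than in arterial. Mical1, an oxidase that disassembles actin downstream of plexins, was lower in type H than in arterial (-6.23 ± 1.24, adjusted p = 0.00432), with type H at -1.38 ± 3.34 and arterial at 4.85 ± 0.32. Sh2d3c, an adaptor of Eph receptors, was higher in type H than in arterial (1.75 ± 0.23, adjusted p = 0.00036), a direction that turned to -0.42 with the pan-endothelial scaling. Farp2, which links Sema3a receptors to Rac, was higher in CD200-high than in arterial (2.55 ± 0.35, adjusted p = 0.000966).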

How the data were processed

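RNA from 12 libraries of 4 sorted populations was read as the log2 values the authors deposited, which are log2 counts per 1e6 reads (CPM) of effective library size with 0.5 read added. Trimmomatic, STAR, SAMtools, deepTools, featureCounts and R 4.3 are named in the submitters' processing notes, which also name the build hg38 for these mouse samples, so no gene coordinates were taken from the files. Whole reads were recovered from the log2 values for 100% of entries within 0.01 read.

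The deposited values of all genes were fitted with limma 3.58.1 (R 4.3.3, trended prior, group means, all 12 libraries) after keeping genes with at least 10 reads at the mean effective size in 3 libraries. P-values were adjusted by Benjamini-Hochberg within each of 6 comparisons and called under 0.05. limma was tested on simulated data beforehand. Count-model tests were not used because the deposited unit is log2. Levels per kilobase used exon lengths of GENCODE vM21.

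Members named with full statistics were, per comparison, up to 5 called rises and 5 falls without overlap and with at least 100 reads in the higher population, members highest or lowest in 1 population, and 11 vascular guidance genes; any other member could be named with its values, and up to 2 rises and 2 falls from each list of partner genes. The members and lists were chosen with earlier results of these data known. Libraries share mouse numbers in the labels, but same-numbered libraries of different populations correlated by only -0.0471 to 0.0819 (median 0.0247, 18 pairs, 12198 genes), so the number was used as a block only as an alternative. The labels call the triplicates biological. P-values measure the spread between these libraries.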

Additional observations from a re-analysis of the deposited data

How the results depend on the processing

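The 107 called differences of guidance genes were recomputed under the alternatives for added reads, filter, fit, scaling, replicate block and left-out libraries. Of 2498 values, 2302 kept direction and call, 161 kept direction only and 35 turned, all 35 of them with pan-endothelial medians set equal. In every setting, 36 differences were called.

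The values that turned with pan-endothelial medians equal were, for CD200-high minus labelled sinusoidal, Efna5 -1.75, Efnb1 -0.94, Nrp2 -0.71, Plxna2 -2.17, Plxnd1 -1.76, Robo1 -0.20, Robo2 -1.08, Sema4c -0.42, Sema4d -3.70, Sema5a -0.77, Sema6b -1.19, Sema6d -0.0017 and Slit2 -1.37. For type H minus labelled sinusoidal they were Efna5 -1.78, Efnb1 -3.34, Epha2 -3.89, Nrp1 -0.37, Nrp2 -3.36, Plxna2 -2.91, Plxnb2 -3.63, Plxnd1 -1.71, Robo1 -1.60, Sema4c -0.82, Sema6b -0.16 and Sema6d -0.61. For type H minus arterial they were Epha2 -0.0405, Nrp2 -0.35 and Plxnd1 -0.50, and for arterial minus labelled sinusoidal Efnb1 -0.998, Plxna2 -0.90, Plxnd1 -1.21, Sema4a -1.61, Sema6a -0.12, Sema6b -0.19 and Sema6d -0.10. This scaling moves each comparison by a constant, given above as the shift of the median of all genes.

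The 5 members called between CD200-high and arterial became 13 with 10 reads added, 15 with 1 CPM added, 10 with only those populations, 10 with voom weights, 9 with quantile normalization, 11 with pan-endothelial medians equal and 9 without the libraries labelled sinusoidal (an alternative chosen after seeing the data). Members were then 22.8, 26.3, 17.5, 17.5, 15.8, 19.3 and 15.8% called, and all genes 16.5, 17.2, 10.4, 14.2, 14.1, 32.1 and 10.1%, against 8.77% and 12.9% as reported. The 24 between type H and labelled sinusoidal became 40 with pan-endothelial medians equal (70.2%, against 90.7% of all genes). The cause of the other changes was not tested.

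Members highest in CD200-high numbered 1, and 4 with 10 reads added, 5 with 1 CPM, 0 without the trend, 5 with voom, 2 with quantile normalization and 0 with pan-endothelial medians equal. Those highest in type H numbered 2, and 4 with voom and 0 with pan-endothelial medians equal. Those highest in arterial numbered 1, and 2 with 10 reads added, 3 with 1 CPM, 2 with no filter, 2 with the same total and 2 without the libraries labelled sinusoidal. Those highest in the libraries labelled sinusoidal numbered 0, and 1 (Slit1) with 10 reads, 1 CPM, no trend or voom, and 11 with pan-endothelial medians equal.

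Leaving out 1 library gave 5 to 8 calls for CD200-high minus arterial (8 without type H replicate 3), 10 to 14 for CD200-high minus type H, 20 to 31 for CD200-high minus labelled sinusoidal, 22 to 26 for type H minus labelled sinusoidal, 17 to 22 for type H minus arterial and 13 to 19 for arterial minus labelled sinusoidal. Highest members then numbered 0 to 2 in CD200-high (0 without CD200-high replicate 1 or 2 or type H replicate 1), 2 to 2 in type H, 1 to 2 in arterial (2 without type H replicate 3) and 0 to 0 in those labelled sinusoidal.

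With the replicate number as a block, 6, 10, 26, 24, 21 and 17 members were called (CD200-high against arterial, type H and labelled sinusoidal; type H against labelled sinusoidal and arterial; arterial against labelled sinusoidal), and members highest in arterial became 2. The block ended 4 of the 107 calls, Sema3d and Unc5c between CD200-high and type H and Unc5c and Sema4d between CD200-high and labelled sinusoidal (adjusted p 0.0538, 0.0512, 0.0635 and 0.0527).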
